A study of Mus musculus with 45 samples.

Results

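This report compares CIC binding in the cerebellum of mice whose polyglutamine-expanded ATXN1 carries 2 substitutions at the CIC contact, 154Q[V591A;S602D], with binding in WT mice. The members are the CIC peaks on chromosomes 1 to 19 of both genotypes, with the summit lines of a peak collapsed to 1 peak, and peaks were called shared where their intervals had at least 1 bp in common. This gave 860 mutant peaks from 986 summit lines and 4495 WT peaks from 5846 summit lines, together 5355 of the 7213 peaks on all sequences of the 3 lists in the series. CUT&RUN releases the DNA under an antibody-bound protein with a tethered nuclease, and here it was applied with an antibody to CIC to nuclei of whole cerebella from C57BL/6 mice of 10 weeks. WT mice (n = 4) are labelled wildtype, and the mutant mice (n = 3) are labelled Atxn1_154Q[V591A;S602D]/2Q, so that 1 Atxn1 allele is expanded and altered and the other is the 2Q allele. A further list came from mice with the expanded allele alone (Atxn1_154Q/2Q, n = 4), and every list was called against Engrailed1-Cre;Cicfl/fl mice (CIC KO, n = 4), in which the Engrailed1-driven recombinase deletes Cic and cells outside that lineage keep it. The authors merged the animals of a genotype before calling peaks, so each genotype gives 1 observation, no spread between animals can be stated, and no difference below was tested between animals. The lists hold no expression, so the labelled tissue could not be checked by its marker genes.

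CIC, or Capicua, is an HMG-box transcriptional repressor that sits at short octamer sites in promoters and enhancers, and it is best known for repressing ETS factor genes and feedback inhibitors of RAS-ERK signalling. When receptor tyrosine kinases activate ERK, CIC is phosphorylated and its targets are released. ATXN1 and CIC form a stable complex in brain, and the V591A and S602D substitutions, named by their place in human ATXN1, lie in the part of ATXN1 that binds CIC, so this comparison asks where CIC is bound when the expanded protein is altered at that contact.

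A few windows are printed to show the CIC octamer at peaks of each kind. Windows of 101 bases, 50 on either side of a summit, are printed 5′ to 3′ on the plus strand of GRCm38, in lower case, with the CIC octamer in capitals in either orientation. The octamers searched were TCAATGAA, TCAATGGA, TGAATGAA and TGAATGGA and their reverse complements. The first set holds strong peaks found in both genotypes, chosen because they hold the octamer, which most strong peaks do not. Among the 100 highest-ranked WT peaks, 14 of the 90 found in the mutant (15.6%, 9.50 to 24.4%) had one in this window. The set comprises the promoter of the ETS factor gene Etv5 (chr16:22439844-22439944), an intergenic site 60687 bp from the start of Mrc2 (chr11:105353305-105353405), an intron of the calsyntenin gene Clstn2 (chr9:97685749-97685849), an intron of the ERK inhibitor gene Spred1 (chr2:117123127-117123227), the promoter of the ETS factor gene Etv1 (chr12:38780732-38780832) and the promoter of Unc13a, which encodes a synaptic vesicle priming factor (chr8:71670722-71670822). The Etv4 site, 1 of 2 octamers in its window, is given as 30 bases (chr11:101785356-101785385) because its window reaches transcribed untranslated sequence.

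Etv5: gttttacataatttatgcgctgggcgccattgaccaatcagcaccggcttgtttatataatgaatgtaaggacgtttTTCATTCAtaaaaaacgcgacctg
near Mrc2: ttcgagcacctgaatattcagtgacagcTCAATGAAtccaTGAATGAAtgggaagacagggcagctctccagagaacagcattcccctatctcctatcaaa
Clstn2: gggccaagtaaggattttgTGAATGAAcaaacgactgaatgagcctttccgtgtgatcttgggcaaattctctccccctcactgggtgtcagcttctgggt
Spred1: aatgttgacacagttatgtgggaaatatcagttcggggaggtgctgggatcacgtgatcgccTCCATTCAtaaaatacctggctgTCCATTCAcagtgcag
Etv1: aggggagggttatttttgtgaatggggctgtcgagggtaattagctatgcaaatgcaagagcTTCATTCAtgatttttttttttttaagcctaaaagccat
Unc13a: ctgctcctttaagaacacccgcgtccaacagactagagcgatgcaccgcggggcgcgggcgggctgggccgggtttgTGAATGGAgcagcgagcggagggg
Etv4: attgacttttgTGAATGAAaccccagggcc

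The second set holds peaks found in WT and not in the mutant. Ptch1, whose product is the Hedgehog receptor, and Pknox1, which encodes a TALE homeodomain factor, carried the 2 highest-ranked of these peaks (chr13:63548730-63548830 in an intron and chr17:31564442-31564542 at the promoter), and neither window holds the octamer. The highest-ranked WT-only promoter window with the octamer that reaches no untranslated sequence is at Vsnl1, a neuronal calcium sensor gene (chr12:11436790-11436890).

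Ptch1: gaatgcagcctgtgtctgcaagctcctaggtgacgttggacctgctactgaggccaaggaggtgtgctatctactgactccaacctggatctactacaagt
Pknox1: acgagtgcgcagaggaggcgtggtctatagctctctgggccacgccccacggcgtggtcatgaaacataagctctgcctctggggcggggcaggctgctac
Vsnl1: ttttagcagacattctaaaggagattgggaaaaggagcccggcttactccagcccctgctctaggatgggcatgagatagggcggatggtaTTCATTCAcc

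A further set holds the mutant-only promoter windows with the octamer, at Socs5, a gene for a suppressor of cytokine signalling (chr17:87106987-87107087), and at Map3k10, which encodes a kinase upstream of JNK and where 2 octamers overlap by 4 bases (chr7:27674746-27674846).

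Socs5: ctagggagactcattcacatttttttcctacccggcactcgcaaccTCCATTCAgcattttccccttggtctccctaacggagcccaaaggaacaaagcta
Map3k10: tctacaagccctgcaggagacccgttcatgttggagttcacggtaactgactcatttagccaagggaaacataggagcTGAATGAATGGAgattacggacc

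Counted by any overlap of the full lists, most mutant peaks were also WT peaks, and most WT peaks had no mutant counterpart. Of the mutant peaks, 600 (69.8%, 95% Wilson interval 66.6 to 72.7%) overlapped a WT peak, and of the WT peaks, 13.1% (12.2 to 14.2%) overlapped a mutant peak, which left 260 mutant-only and 3904 WT-only peaks. The unequal shares go with the unequal lengths of the lists. With the WT list shortened to its 860 highest-ranked peaks, 41.3% of mutant and 40% of WT peaks were shared, and with a reciprocal overlap of 50% the shares of the full lists were 40.7% and 7.79%, so that a majority of mutant peaks was shared under neither rule. These intervals, like all intervals here, cover counting error over peaks or fragments and not differences between animals. The share found depended on rank by the authors' −log10 q. Of the 100 highest-ranked WT peaks, 90 were found in the mutant list, against 55 of the next 100, 81 of the 200 after those and 39 of the 1295 lowest-ranked. From the mutant side, 97 of the first 100, 91 of the next 100 and 149 of the 200 after those were found in the longer WT list, which offers more peaks to overlap, so the bins of the 2 lists are not compared. The 60 lowest-ranked mutant peaks held 43 that were also WT peaks, so the mutant share did not decline steadily.

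**Figure D1:**
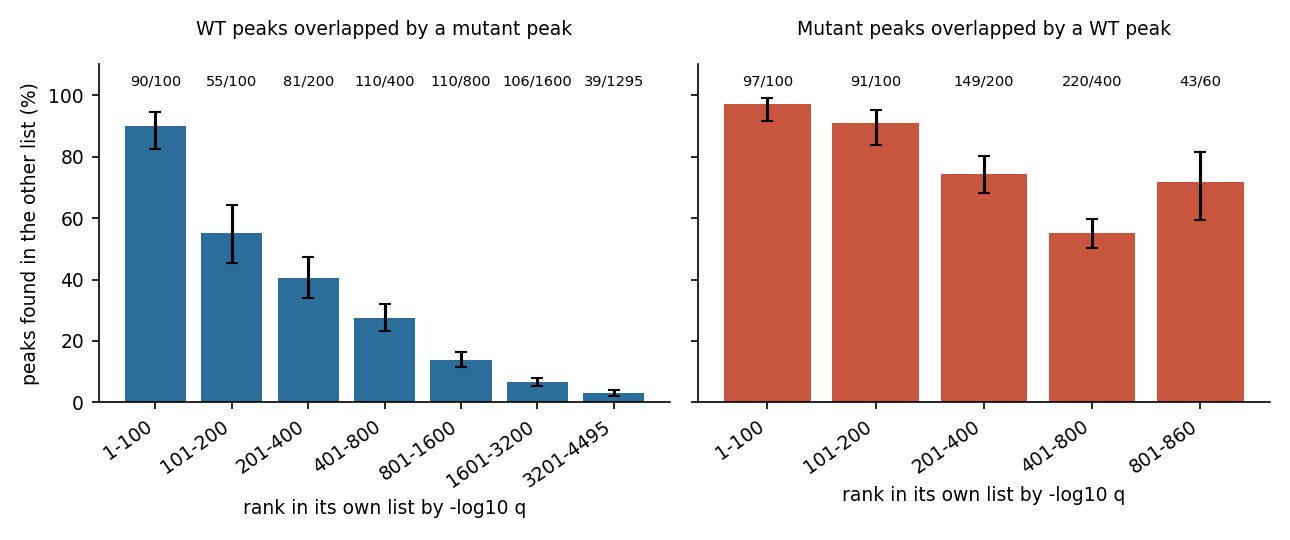
Share of peaks found in the other list (vertical axis, percent) by rank of −log10 q within a list (horizontal axis), for WT peaks on the left and mutant peaks on the right. Bars are shares with 95% Wilson intervals and the numbers above them are peaks found over peaks in the bin. The WT share drops from 90% in the first bin to 3.01% in the last, and the mutant share from 97% to 55% in its lowest bin. The lists differ in length, so the panels are not compared.

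The lists rest on different depths, which bears on every lost peak. Where the control held no local excess, the caller assumed a genome-wide background, which was 6.59 fragments in the WT list and 5.28 in the mutant list, a depth ratio of 1.25. At 109 shared peaks with summits within 10 bp the median ratio of local backgrounds was 1.25 (interquartile range 1.20 to 1.32). Both lists were called against the same CIC KO libraries, so this second ratio is no independent check of the first. The weakest −log10 p in the list was 5.18 for the mutant and 4.59 for WT, so the mutant list also had the higher threshold. When WT pileups and backgrounds were divided by the depth ratio, 2842 of the 4495 WT peaks (63.2%) still reached the mutant threshold. Of these, 542 (19.1%, 17.7 to 20.6%) were found in the mutant list, against 49 of the 1653 WT peaks (2.96%, 2.25 to 3.90%) that no longer reached it. Of the 3904 WT-only peaks, 2300 (58.9%) therefore reached the mutant threshold at the mutant depth with an unchanged level of binding, and the others did not. The rule takes each scaled pileup as exact, so sampling of fragments could put a peak near the threshold on either side.

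At shared peaks, the mutant had fewer fragments over the summit than WT after scaling for depth. Depth was taken from the backgrounds, and the E. coli spike-in by which the study normalized its signal was not used. Differences between the libraries other than depth therefore cannot be told apart from differences in binding. A pileup is the number of fragments that cover a summit, solved as a whole number from the authors' fold enrichment and −log10 p. Over the 600 shared pairs, each mutant peak with the WT peak it overlapped most, the median pileup was 50 in WT (lowest 19, highest 5275) and 29 in the mutant (lowest 18, highest 4293). The median ratio of mutant to WT pileup, multiplied by the depth ratio, was 0.762 (95% order-statistic interval 0.743 to 0.783, interquartile range 0.608 to 0.975), and 466 of the 600 pairs were lower in the mutant. With 1.5-fold as the size that counts as changed, 200 pairs (33.3%) were lower and 12 pairs (2%) were higher in the mutant. The exact counting interval of a single pair lay wholly below 1 for 195 pairs and wholly above 1 for 6 pairs. The ratio of the authors' fold enrichments, which needs no depth ratio, had a median of 0.808 over the same pairs.

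**Figure D2:**
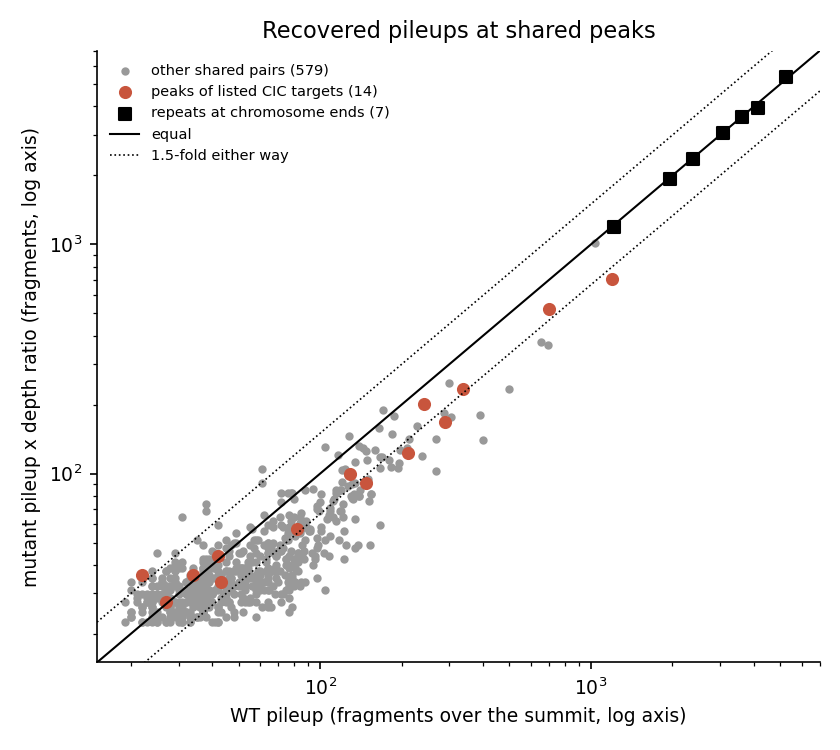
Recovered pileup in WT (horizontal, log axis, fragments) against mutant pileup multiplied by the depth ratio of 1.25 (vertical, log axis, fragments) at the 600 shared pairs. Solid line, equal; dotted lines, 1.5-fold either way. The 7 repeats at chromosome ends (black squares) lie on the line of equality and 10 of the 14 pairs at listed CIC targets (red) lie below it.

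The strongest WT peaks showed the difference with the least effect of the calling threshold. Among the 100 highest-ranked WT peaks, leaving aside repeats at chromosome ends, 83 had a mutant counterpart, and all 83 ratios lay below 1, from 0.30 to 0.979, with a median of 0.594 (0.574 to 0.632). Of these, 55 were past 1.5-fold lower and none was past 1.5-fold higher. The fold enrichment ratio of these pairs had a median of 0.597 (0.551 to 0.615). Medians were 0.569 at WT ranks 101 to 200, 0.612 at ranks 201 to 400, 0.717 at ranks 401 to 800, 0.854 at ranks 801 to 1600, 1.06 at ranks 1601 to 3200 and 1.29 below. A WT peak can count as shared only where the mutant passed its own threshold, and the weaker the WT peak, the higher the ratio this needs. The median of the largest ratio that a WT-only peak could have had without a call was 0.355 in the first 100 ranks and then 0.439, 0.509, 0.608, 0.731, 0.903 and 1.07. The rise of the medians with rank is therefore built into the comparison, and no trend is read from it. Ranking by WT values favours pairs that were high in WT by chance, and ranking by mutant values does the reverse. Among the 90 pairs from the 100 highest-ranked mutant peaks, again without chromosome ends, the median was 0.730 (0.685 to 0.792), 75 of 90 pairs were lower in the mutant, 31 were past 1.5-fold lower and 3 past 1.5-fold higher.

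**Figure D3:**
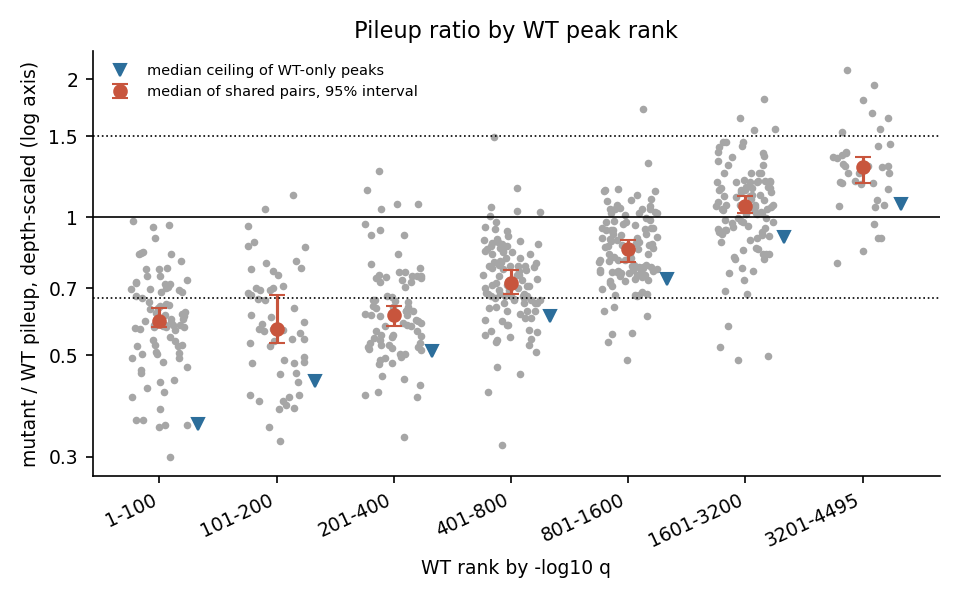
Depth-scaled ratio of mutant to WT pileup (vertical, log axis) by WT rank (horizontal), without chromosome-end repeats. Grey points are shared pairs, red points are their medians with 95% order-statistic intervals, and blue triangles are the median of the largest ratio a WT-only peak could have had without being called in the mutant. The medians of the first 3 bins, 0.594, 0.569 and 0.612, lie under the lower dotted line at 1.5-fold, and those of the last 2 bins lie above 1.

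A group of 7 repeat peaks did not share this difference. They lay within 200 kb of the ends of 7 chromosomes, consisted wholly of soft-masked repeat, and included 5 of the 10 highest-ranked shared peaks. The highest-ranked of them, on chromosome 14 (chr14:124801597-124802193, 124833 bp from the start of Fgf14), had a pileup of 5275 in WT and 4293 in the mutant, a ratio of 1.02 (0.975 to 1.06). The others among the 10 highest-ranked shared peaks were nearest A630089N07Rik (4140 and 3171 fragments), Tmem196 (3606 and 2870), Wls (3065 and 2447) and Tcstv3 (2387 and 1886). Across all 7, the WT pileups ran from 1222 to 5275 and the mutant pileups from 956 to 4293, while the depth-scaled ratios stayed between 0.955 and 1.02 and the width ratios between 0.936 and 0.995. Their fold enrichment over the CIC KO control was 2.08 to 3.24 in WT and 1.97 to 3.22 in the mutant. These pairs were grouped after their values were seen. Of the peaks elsewhere with over 50% repeat, an intergenic one nearest Adgre5 on chromosome 8 went from 1032 to 810 fragments, a ratio of 0.979. That is a single pair, and it does not stand for repeats in general, as 19 kept WT peaks had over 50% repeat. The study treated telomeric repeat peaks as non-specific, and none of the 7 was in the 154Q list, from which such peaks had been removed.

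The strongest shared peaks in unique sequence included genes that CIC is known to repress, Etv5 and Spry4, and all 5 of those named next had lower depth-scaled pileups in the mutant. At Etv5, an ETS transcription factor gene, the promoter peak had 1193 fragments over its summit in WT and 568 in the mutant, a ratio of 0.594 (0.536 to 0.657). The intergenic peak near Mrc2, a collagen receptor gene, had 697 and 292 fragments, a ratio of 0.523 (0.454 to 0.60), with both summits on the same base. At the promoter of Hsd17b12, which encodes a reductase of fatty acid elongation, the pileups were 652 and 300 (0.574, 0.499 to 0.659). Spry4, a feedback inhibitor of receptor tyrosine kinase signalling, had 700 and 418 fragments at its promoter (0.745, 0.658 to 0.842). The peak in an intron of Clstn2, a postsynaptic adhesion protein gene, had 390 and 145 fragments (0.464, 0.381 to 0.563). Pileups were best kept at Spry4 and least at Clstn2 among these 5, but by fold enrichment Etv5 (ratio 0.775) stood above Spry4 (0.679), with Clstn2 again lowest (0.489). The counting intervals of Spry4 and Clstn2 do not overlap, but these peaks were picked as the highest and lowest pileup ratios of the 5. The intervals make no allowance for that choice and do not cover differences between animals. Whether the shared peaks were lower by 1 common factor was therefore not tested.

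With the chromosome-end repeats set aside, the next peaks by WT rank were named after their values were seen, and they had the same direction. An intergenic peak 174931 bp from Sipa1l2, a gene for a Rap GTPase-activating protein, had 498 fragments in WT and 188 in the mutant (0.471, 0.396 to 0.558). Hbp1, an HMG-box repressor gene, had 305 and 142 at its promoter (0.581, 0.473 to 0.711). The intronic Spred1 peak printed above, with 2 octamers, had 212 and 99 (0.583, 0.454 to 0.743), and it had the widest margin over the control, a fold enrichment of 16 in WT and 8.92 in the mutant. Hdac4, a class II histone deacetylase gene, had 209 and 104 (0.621, 0.486 to 0.789), but the summits lay 111 bp apart and the fold enrichment ratio was 0.274. Prcc had 154 and 65 (0.527, 0.388 to 0.708), and the GTPase gene Rhebl1 had 198 and 102 (0.643, 0.501 to 0.820).

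**Figure D4:**
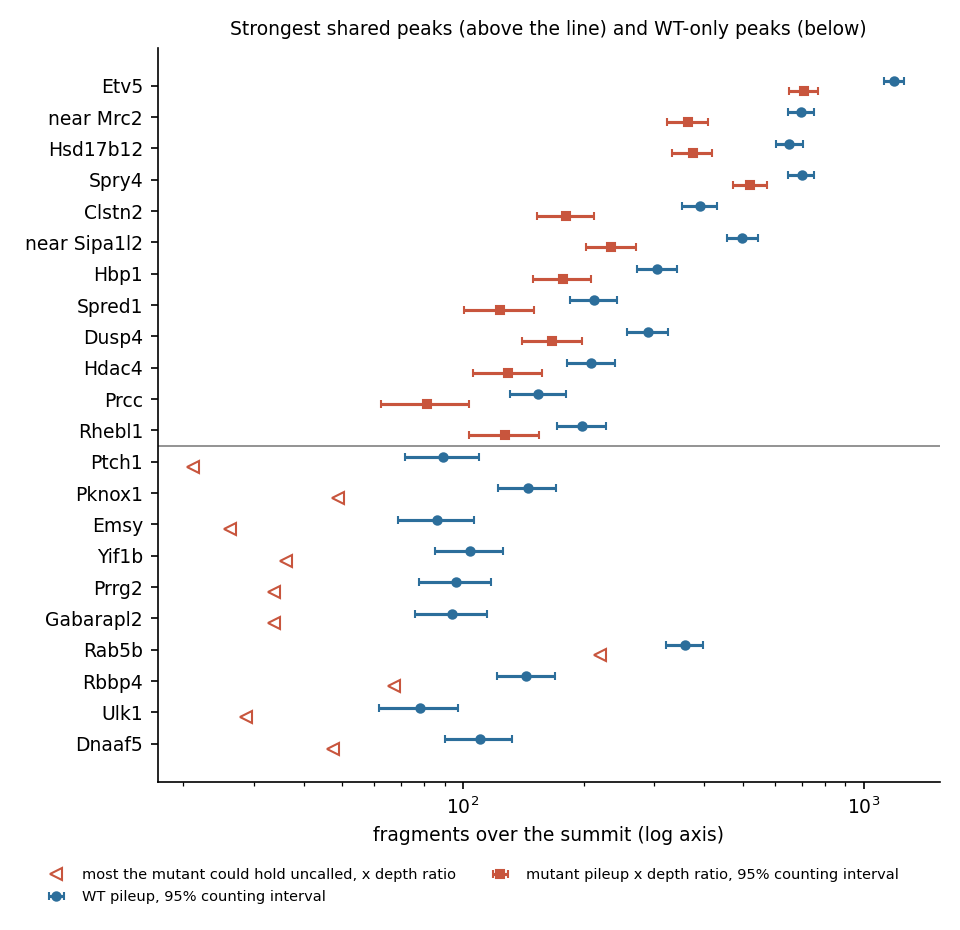
Fragments over the summit (horizontal, log axis) at the 12 highest-ranked shared peaks without chromosome-end repeats (above the line) and the 10 highest-ranked WT-only peaks (below). Blue points are WT pileups and red squares are mutant pileups times the depth ratio, with 95% Poisson intervals. Open triangles mark the largest depth-scaled pileup the mutant could have had without a call. The intervals of the genotypes do not overlap at any of the 12 shared peaks, and every triangle lies left of the WT interval.

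The pairs with the lowest ratios, among those with summits within 50 bp, were all at promoters. Rsbn1 had 104 fragments in WT and 25 in the mutant, a ratio of 0.30 (0.186 to 0.468). Acss2, which encodes a cytosolic acetyl-CoA synthetase, had 122 and 34 (0.348, 0.230 to 0.512). Fem1c, a substrate receptor of a ubiquitin ligase, had 135 and 38 (0.351, 0.238 to 0.507). The orphan nuclear receptor gene Esrra had 138 and 39 (0.353, 0.240 to 0.506), Unc13a had 97 and 28 (0.36, 0.228 to 0.553), and Garem1, an adaptor of ERK signalling, had 88 and 27 (0.383, 0.239 to 0.595). All 6 intervals lay below 1, and these genes were picked for their low values.

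The pairs with the highest ratios, again among those with summits within 50 bp, rested on few fragments. An intronic peak of Ntm, a neuronal adhesion gene, had 20 fragments in WT and 27 in the mutant (1.68, 0.910 to 3.17). A repeat peak nearest Scgb1b11 had 20 and 25 (1.56, 0.832 to 2.96), and the promoter of Sinhcaf, a subunit gene of the SIN3-HDAC complex, had 29 and 36 (1.55, 0.923 to 2.62). The promoters of the phosphatase gene Ptpn23 and of Pde4dip had 22 and 27 (1.53, 0.840 to 2.82) and 24 and 28 (1.46, 0.813 to 2.62). A peak 158636 bp from Castor2 had 19 and 22 (1.44, 0.746 to 2.82). All 6 intervals included 1, so none of these was separable from equal binding.

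With summits at any distance, the counting interval lay above 1 at 6 pairs, whose summits were 71 to 154 bp apart. The highest ratio of all pairs was at an intergenic peak nearest Neto1, an auxiliary subunit gene of glutamate receptors, with 31 fragments in WT and 52 in the mutant (2.09, 1.32 to 3.38). Promoter peaks of Lsm14b (38 and 59 fragments, 1.94), the neuropeptide precursor gene Vgf (38 and 55, 1.81) and Sugt1 (25 and 36, 1.80) were higher in the mutant by fold enrichment too, which uses the same pileups. At the promoters of the kinase gene Pim3 (61 and 84, 1.72) and the peptidase gene Dnpep (61 and 73, 1.49), the fold enrichment ratios were 0.557 and 0.571 and so had the other direction.

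Shared peaks were narrower in the mutant. The median width was 377 bp in WT (interquartile range 252 to 528) and 218 bp in the mutant (166 to 297), and the median ratio of mutant to WT width was 0.643 (0.606 to 0.678). The mutant peak was narrower in 513 pairs, wider in 86 and equal in 1, and 366 mutant peaks (61%, 57.0 to 64.8%) lay wholly inside their WT peak. WT peaks also had more summits than their mutant partner in 246 pairs and fewer in 28. Among the 288 pairs of 1 WT and 1 mutant peak with a single summit in each, the median width ratio was 0.758. At Etv5 the promoter peak was 742 bp wide in WT and 533 bp in the mutant, and at Clstn2 the widths were 391 and 195 bp. The caller sets the edges of a peak where the signal crosses a significance threshold, so a lower pileup at a lower depth alone narrows a peak, and the part of depth in the width was not tested.

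Summits of shared pairs coincided closely at the strongest peaks and less so elsewhere. The median distance between the highest-ranked summits of a pair was 50.5 bp (43 to 60). Summits were within 10 bp in 109 pairs (18.2%), within 50 bp in 300 pairs (50%, 46.0 to 54.0%) and within 100 bp in 413 pairs (68.8%, 65.0 to 72.4%). Distances were shortest at the strongest peaks, with a median of 12.0 bp at WT ranks 1 to 100, 33.0 bp at ranks 101 to 200 and 58.0 bp at ranks 201 to 400. In the later bins the medians were 61.0, 65.5, 70.0 and, at the lowest ranks, 48.0 bp, so the rise was not steady. When any summit of either peak could be matched, the median distance was 29.0 bp and 502 pairs (83.7%) lay within 100 bp. At 28 pairs chosen for an octamer within 50 bp of the WT summit, a choice that caps the WT distance alone, the mutant summit lay at a median of 32.0 bp from that octamer.

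**Figure D5:**
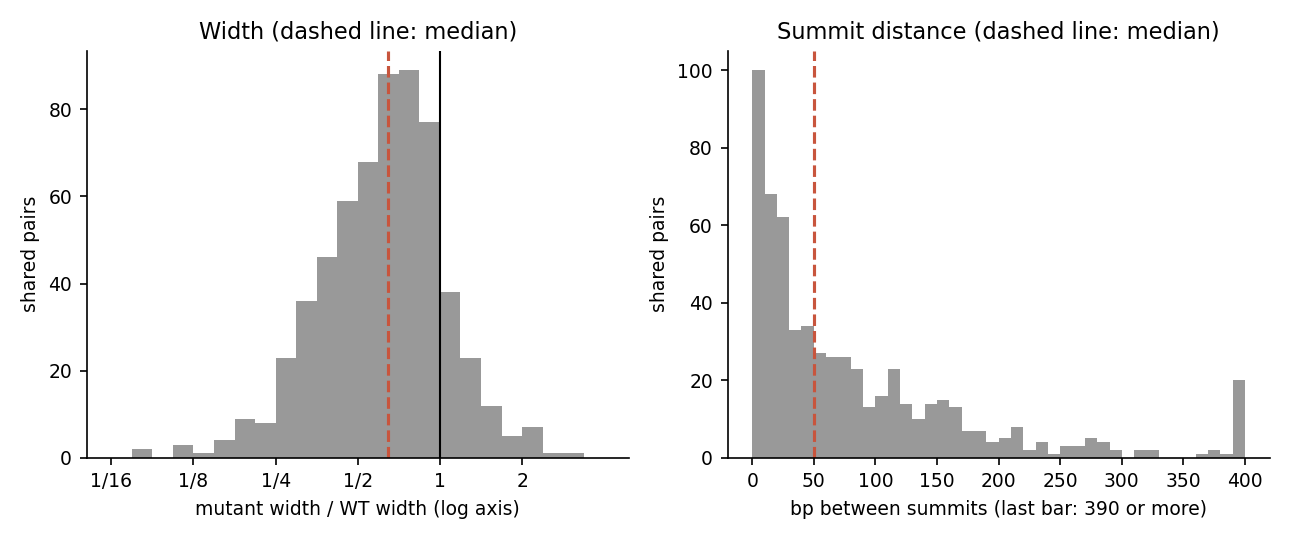
Left, ratio of mutant to WT peak width (log axis) and right, distance in bp between the highest-ranked summits, both as numbers of the 600 shared pairs. Dashed lines are the medians, 0.643 and 50.5 bp. Most widths lie left of 1, and the tallest bar of the distances is the first, under 10 bp.

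The 10 highest-ranked WT-only peaks lay at genes of varied function, and all 10 would still have been called at the mutant depth with WT binding. For each, the largest pileup that the mutant could have held without reaching its weakest −log10 p was computed at the depth-scaled WT background. Ptch1 had an intronic peak at WT rank 41 with 89 fragments over a background of 6.59, and the mutant could have had at most 17 fragments there, a depth-scaled ratio of at most 0.238. Pknox1 had 145 fragments at its promoter with a mutant limit of 39 (0.336). Emsy, whose product binds BRCA2, had 86 fragments with a limit of 21 (0.305), and Yif1b, of the secretory pathway, had 104 with a limit of 29 (0.348). The limit of Ptch1 lay below the lowest ratio measured at any shared pair, and those of the other 3 lay above it.

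The other 6 had limits between 0.351 and 0.613. An intronic peak of Prrg2, 1486 bp from the start of Prr12, had 96 fragments with a mutant limit of 27. Gabarapl2, an autophagy gene of the ATG8 family, had 94 with a limit of 27, and Ulk1, the kinase that initiates autophagy, had 78 with a limit of 23. The endosomal GTPase gene Rab5b had 358 fragments over a high background of 156 and a limit of 176, which is the loosest of the 10. The histone chaperone gene Rbbp4 had 144 with a limit of 54, and Dnaaf5, a dynein arm assembly gene, had 110 with a limit of 38. The limits take the weakest called peak as the threshold, and filters that the authors applied after calling could have removed a mutant peak above them. Over all 3904 WT-only peaks, 497 (12.7%, 11.7 to 13.8%) had a limit past 1.5-fold lower than WT.

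Many of the strong WT-only peaks were present in the mice with the expanded allele alone. Of the 10 named, 7 overlapped a peak of the 154Q list, all but Ptch1, Rab5b and Ulk1. Among WT-only peaks of rank up to 400, 103 of 174 (59.2%, 51.8 to 66.2%) were in the 154Q list, against 203 of 226 (89.8%, 85.2 to 93.1%) of the WT peaks of that rank that the mutant kept. Over the whole lists the shares were 604 of 3904 WT-only peaks (15.5%) and 403 kept WT peaks (68.2%). The 154Q list gives summits without intervals and had repeats removed, so these overlaps are minimum values, and its depth is unknown.

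Mutant-only peaks were weaker and included more repeats. Their median pileup was 21 fragments, against 29 at mutant peaks also found in WT, and their median width was 168 bp against 218 bp. Over 50% of the interval was repeat in 25 of 260 (9.62%, 6.60 to 13.8%), against 19 of 600 (3.17%, 2.04 to 4.89%), and 109 of 260 (41.9%) lay at the genome-wide background, against 55 of 600 (9.17%). Only 23 of 260 (8.85%, 5.97 to 12.9%) were in the 154Q list, against 386 of 600 (64.3%, 60.4 to 68.1%). Without repeat peaks these counts were 22 of 235 and 386 of 581. A WT summit lay within 1 kb of 56 of the 260, so part of them sat beside a WT peak without touching it. The depth-scaled limit for WT was past 1.5-fold lower than the mutant pileup at 52 of 260 (20%, 15.6 to 25.3%).

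The 10 highest-ranked mutant-only peaks held 5 with over 50% repeat. The first, 64820 bp from Efr3a (chr15:65722005-65722283), had 39 fragments and a WT limit of 22, which is at most 0.452 of the mutant level after scaling. Repeat peaks 136871 bp from Trim33 and 171178 bp from Ncam2 had 35 and 31 fragments with a WT limit of 20 each, a repeat-rich intronic peak of Tmem267 had 339 with a limit of 331, and one at the predicted gene Gm6526 had 33 with a limit of 24. In unique sequence, a peak 32559 bp from Lrpap1, a chaperone gene of lipoprotein receptors, had 31 fragments with a WT limit of 20 and was the single member of the 10 found in 154Q. Cdyl, a chromodomain co-repressor gene, had 28 in an intron with a limit of 18, the promoter of Phip had 33 with a limit of 23, and a site 179107 bp from Arhgef26 had 74 with a limit of 65. A coding exon of Cic itself (chr7:25285512-25285691) had 56 fragments with a limit of 44. The control mice carry a deletion within Cic in Engrailed1-lineage cells, and the part of that deletion in the background of this peak was not tested.

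Kept peaks were more often at promoters than lost ones. A promoter was taken as 1 kb on either side of a start site, and it held the summit of 433 kept WT peaks (73.3%, 69.6 to 76.7%) and of 2132 WT-only peaks (54.6%, 53.0 to 56.2%). Introns held 88 (14.9%) and 1154 (29.6%), and intergenic sequence held 65 (11%) and 516 (13.2%). Of the mutant-only peaks, 151 of 260 (58.1%, 52.0 to 63.9%) were at promoters. Kept WT peaks were also stronger, with a median of 49 fragments against 28, and wider, with a median of 370 bp against 201 bp, so position and strength moved together here. Within WT ranks up to 400, the depth-scaled pileup ratio had a median of 0.60 (0.579 to 0.624) at 190 promoter pairs, 0.538 (0.480 to 0.589) at 28 intronic pairs and 0.652 (0.538 to 0.744) at 12 intergenic pairs. The intronic interval overlaps both others. Over all ranks the order was another, with medians of 0.741 at 436 promoter pairs, 0.799 at 92 intronic pairs and 0.878 at 60 intergenic pairs, so no order of positions is read from these medians. The chromosome-end repeats were left out of both sets.

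The octamer was most frequent at kept peaks. It lay within 50 bp of the summit in 28 kept WT peaks (4.74%, 3.30 to 6.76%), with 9 in windows of the same length 500 bp away (1.52%). At WT-only peaks it was in 78 of 3904 (2.00%, 1.6 to 2.49%), with 44 in the flanks (1.13%), and at mutant-only peaks in 5 of 260 (1.92%, 0.824 to 4.42%), with 6 in the flanks (2.31%). With windows of 201 bases the shares were 7.11% of kept and 3.71% of WT-only peaks, beside 3.05% and 2.77% in the flanks. The ratio of WT-only peaks to their flanks was thus smaller with the wider window, though the difference in percentage points was not. Of the windows of 101 bases at all 39599 annotated protein-coding start sites, 354 (0.894%) held it. Within WT ranks up to 400, it was in 18 of 226 kept peaks (7.96%, 5.10 to 12.2%) and 3 of 174 WT-only peaks (1.72%, 0.588 to 4.95%). The depth-scaled ratio had a median of 0.697 (0.632 to 0.832) at 28 pairs with an octamer and 0.764 (0.744 to 0.784) at the 572 without, and these intervals overlap.

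By gene, the mutant kept a minority of the WT genes and added few. A protein-coding gene was counted where a summit lay in its body or up to 5 kb upstream, which gave 3530 genes in WT (17% of 20780) and 815 in the mutant (3.92%). Both lists had a peak at 695 genes, which is 19.7% (18.4 to 21%) of the WT genes and 85.3% (82.7 to 87.5%) of the mutant genes, while 2835 genes had a WT peak alone and 120 a mutant peak alone. These counts moved with the rule. With summits within 1 kb of a start site, 411 genes were kept and 1791 lost, and with q below 0.001 in both lists, 363 were kept and 54 were new. At 603 of the 695 kept genes a mutant and a WT peak overlapped, and at 92 the peaks were at different places in the gene. Long annotated bodies take in summits that lie nearer to other genes, so counts of genes are not counts of regulated genes.

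Most listed CIC targets with a WT peak also had a mutant peak. Of 12 targets, 9 had a WT peak and 7 of these had a mutant peak, beside 19.7% of all WT genes. The list was compiled with results of these libraries known, so it is not independent evidence. The kept genes were the ETS factor genes Etv1, Etv4 and Etv5, the ERK pathway inhibitors Spry4, Spred1 and Spred2, and the ERK phosphatase gene Dusp4. Their strongest WT peaks ranked from 3 at Etv5 to 88 at Spred2, and of the 100 highest-ranked WT peaks of any gene 90 were found in the mutant. The share of targets kept is therefore not read as particular to targets. The genes lost were Dusp6, another ERK phosphatase gene, and Shc3, a neuronal adaptor gene, and Spry2, Spred3 and Ccnd1 had no peak in either list. The 2 lost peaks were weak in WT. Dusp6 had 47 fragments in WT at rank 3159 and a mutant limit of 38, which leaves a ratio of just above 1, so its loss was not separable from the difference in depth. Shc3 had 55 fragments at rank 1259 and a limit of 34, a ratio of at most 0.771.

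The kept targets held 14 shared pairs, of which 10 were lower in the mutant, 4 past 1.5-fold, and 1 past 1.5-fold higher. At Dusp4 the promoter peak had 289 fragments in WT and 134 in the mutant (0.578, 0.468 to 0.712). Etv1 had 148 and 73 at the window printed above (0.615, 0.458 to 0.820) and 242 and 161 at a second promoter peak (0.830, 0.676 to 1.02). Etv4 had 338 and 188 (0.694, 0.577 to 0.832). A second, intronic Etv5 peak had 129 and 80 (0.774, 0.578 to 1.03), and a weaker one had 42 and 35 (1.04, 0.644 to 1.67). Spred2 had 82 and 46 at its strongest peak (0.70, 0.477 to 1.02), and 22 and 29 at a peak 4023 bp from its start (1.64, 0.912 to 3.0). The strongest pair of each of the 7 kept targets was lower in the mutant, and the interval of 6 of them, all but Spred2, excluded 1. Both summits lay within 50 bp in 12 of the 14 pairs.

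Genes of the RAS-ERK cascade that feeds into CIC were kept at a share near that of all genes. Of 38 such genes on these chromosomes, 15 had a WT peak, beside 17% of all genes, and 2 (5.26%) had a mutant peak, beside 3.92% of all genes. The 2 of 15 kept stand beside 19.7% of all WT genes. These were the immediate early genes Fos and Egr1. Fos had 150 fragments in WT and 76 in the mutant at its stronger peak (0.632, 0.473 to 0.838) and 73 and 47 at the other (0.803, 0.544 to 1.17), and Egr1 had 75 and 42 (0.699, 0.467 to 1.03), with a fold enrichment ratio of 0.401 and summits 196 bp apart. The 13 lost genes included the receptor genes Ntrk2 and Ntrk3, the adaptor gene Grb2, the RAS GTPase-activating protein gene Rasa1, the kinase genes Mapk3, Rps6ka1 and Rps6ka2, and the transcription factor genes Srf and Junb. Fgfr2 was counted as lost only because its long annotated body takes in 10 WT peaks, all of which lay nearer to the start of another gene. The strongest WT peaks of the lost genes ranked from 627 at Rasa1 (37 fragments, mutant limit 17, ratio at most 0.573) to 3734 at Ptpn11 (20 fragments, limit 17, ratio of up to 1.06).

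Among genes of the ATXN1-CIC complex and its partners, 8 of 17 had a WT peak and 4 a mutant peak, beside 17% and 3.92% of all genes, and 3 of the 8 were kept, beside 19.7%. Cic, the co-repressor gene Sin3a and the zinc finger gene Zbtb5 were kept. The Cic promoter peak had 400 fragments in WT and 112 in the mutant (0.349, 0.281 to 0.432), with summits 166 bp apart and a background of 196 in WT and 48.9 in the mutant, so the ratio of fold enrichments there, 2.04 against 2.26, went the other way. Sin3a had 196 and 89 (0.566, 0.436 to 0.731) with summits 271 bp apart, and Zbtb5 had 238 and 96 (0.503, 0.393 to 0.640) with summits 65 bp apart. The backgrounds at Zbtb5 were 81.3 and 38.6, and its fold enrichment ratio was 0.844. The lost genes included Hdac3, Rfx1, Ywhaz and Capn15, with 33 to 73 fragments in WT. The limit of Rfx1 leaves a ratio of up to 1.08, so its loss was not separable from the difference in depth, and those of the other 3 were 0.667 to 0.756. Atxn1 was new by a mutant-only peak of 19 fragments in its untranslated sequence, with a WT limit of 18. That peak was 38.2% repeat, lay nearest to the start of Gmpr, 61082 bp away, and was not in the 154Q list.

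Marker genes of cerebellar cell types were compared as gene lists, since a merged tissue cannot show which cells hold a peak, and fewer cells with a peak and less binding per cell cannot be told apart. Granule neurons make up most cerebellar nuclei, and 13 of their 16 listed genes had a WT peak and 5 a mutant peak, beside 17% and 3.92% of all genes. The 5 of 13 kept stand beside 19.7% of all WT genes. Those kept were the transcription factor genes Neurod2 and Zic2, the secreted synaptic organizer gene Cbln3, the vesicular glutamate transporter gene Slc17a7 and the cadherin gene Fat2. Neurod2 had peaks at different places in the lists, and the 5 shared pairs of the other 4 genes had ratios from 0.758 to 1.20. Those lost were Neurod1, Gabra6, Pax6, Zic1, Zic4, Rbfox3, Chn2 and Grin2c, and Zic1 and Zic4 share 1 peak. Their mutant limits ran from 0.768 at Gabra6 to 1.12 at Pax6. Of 22 Purkinje cell genes, 5 (22.7%) had a WT peak and 3 (13.6%) a mutant peak, and 2 of the 5 were kept. The inositol phosphatase gene Inpp5a had 139 and 64 fragments at its promoter (0.574, 0.420 to 0.778), Cacna1a, a calcium channel gene, had peaks that did not overlap, and Rora, Plcb4 and Dab1 were lost. Of 22 glial genes, 1 was counted, Cx3cr1, and its peaks lay nearer to the starts of other genes, Xirp1 in WT and Csrnp1 in the mutant.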

How the data were processed

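The authors performed CUT&RUN on cerebellar nuclei, trimmed reads with Trimmomatic 0.36, aligned them with Bowtie2 2.3.4.1 to mm10 (GRCm38), kept fragments under 120 bp, merged the animals of a genotype and called peaks against the merged CIC KO libraries with MACS at a q-value of 0.05 (tools as in the submitters' processing notes). The deposited lists give a fold enrichment, that is the ratio of pileup to background, each plus 1, with a −log10 p-value and a −log10 q-value. The deposited score column was not used, and neither were counts of the E. coli spike-in by which the study normalized its signal. The methods state that peaks with over 50% repeat were omitted, but the WT and mutant lists hold such peaks, which were kept here. The 154Q list was used for overlaps only. The labels attach the WT list to the CIC KO samples, and it was taken as WT against CIC KO from its name and the methods.

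Pileups were solved from fold enrichment and the Poisson tail, and all 1100 mutant and 5998 WT summits came within 0.02 of a whole number. The step was tested on simulated data. Annotation was GENCODE M21 basic and sequence was GRCm38 (soft-masked, RefSeq). Python 3.11.15, scipy 1.17.1 and pandas 2.3.3 were used, and overlaps were checked with bedtools 2.31.1. Shares carry Wilson intervals, pileup ratios exact conditional intervals, and medians order-statistic intervals, all at 95%. Genes and lists were chosen with earlier results of these data known. The text names the 10 highest-ranked kept (5 of them chromosome-end repeats), WT-only and mutant-only peaks, the 6 highest and 6 lowest ratios with summits within 50 bp, and fixed gene lists. Alternatives were other overlap rules, thresholds, depth ratios, repeat filters, windows and gene assignments. H3K27ac and IgG samples were not analysed here. A few listed genes are counted and not reported by name.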

Additional observations from a re-analysis of the deposited data

Results flagged for a closer look

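Peaks on the sex chromosomes lie outside the comparison. The WT list held 59 peaks on chromosome X and 34 on chromosome Y, and the mutant list held 16 on chromosome X and 42 on chromosome Y, all above the CIC KO control by the way peaks were called. On chromosome X, 15 of the 59 WT peaks overlapped a mutant peak, and on chromosome Y 25 of the 34 did. Of the chromosome Y peaks, 21 in each list had over 50% repeat.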

How the results depend on the processing

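No paired analysis was possible because replicates were merged before peak calling, and for the same reason none could be left out in turn. The median pileup ratio and the median width ratio stayed below 1 in every alternative. Of 62 alternative values of all results, 35 stayed within the interval of the reported value, or within 1.5 times for counts of genes. The others follow. The share of WT peaks found in the mutant was 7.79% with a reciprocal overlap of 50%, 11.8% with q below 0.001 in both lists, 40% with the WT list shortened to the mutant length, 19.1% for WT peaks callable at mutant depth and 17.7% with every summit line kept. For mutant peaks found in WT, the first 4 of these gave 40.7%, 78.0%, 41.3% and 64.4%, so that the majority of mutant peaks found in WT was lost under the first and the third. The median pileup ratio was 0.805 with the depth ratio taken from the step between control backgrounds (1.32), 0.808 with fold enrichments and 0.594 among the 100 highest-ranked WT peaks. The shares past 1.5-fold lower were then 28.3%, 28.3% and 66.3%, and none was past 1.5-fold higher (0%) in the last. The width ratio was 0.758 with single summits. With the nearest summits the median distance was 29.0 bp, and 23.5%, 66.3% and 83.7% of pairs lay within 10, 50 and 100 bp. Counting start sites within 1 kb gave 411 genes kept and 1791 lost, and q below 0.001 gave 363 kept and 54 new. With windows of 100 bp on either side, 7.11% of kept and 3.71% of WT-only peaks held the octamer. The restriction to the 100 highest-ranked peaks, the depth ratio from chromosome-end repeats and 1 gene per peak were added after seeing the data.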
